A study of Homo sapiens with 6 samples.

Results

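The histone genes comprised 86 of the 19330 genes in the count table of the RNA sequencing (RNA-Seq) experiment. They were taken by symbol: 71 replication-dependent genes, whose symbols begin with HIST1H, HIST2H, HIST3H or HIST4H, and 15 variant genes, whose symbols begin with H1F, H2AF or H3F. The study used K562, a human chronic myelogenous leukemia cell line, transduced with the lentiviral vector pLentiCRISPRv2, which carries Cas9 and a single guide RNA (sgRNA). In 3 libraries the sgRNA was a control (sgCtrl, listed as directed at olfactory receptor genes), and in 3 libraries it targeted N6AMT1 (sgN6AMT1), with 1 library per independent transduction. All 6 cultures were pools of transduced cells selected with puromycin and analysed 10 days after infection, and the sources used here do not say which of several sgRNAs each library received.

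N6AMT1 is a methyltransferase that modifies the translation termination factor eRF1 and has also been described as a histone H4 lysine methyltransferase, so histone genes are a group of interest in cells depleted of it. Total counts were 742470, 866894 and 866155 in the sgCtrl libraries and 959319, 5526904 and 4062363 in the sgN6AMT1 libraries. N6AMT1 itself had 6, 5 and 9 counts in sgCtrl and 0, 18 and 16 counts in sgN6AMT1. These were 8.08, 5.77 and 10.4 counts scaled to a library of 1000000 (cpm) against 0, 3.26 and 3.94 cpm, so every sgN6AMT1 library lay below every sgCtrl library, but at too few counts to pass the filter for testing. All 11 erythroid and K562 markers listed were detected in sgCtrl, from 11.5 to 40.4 cpm of the transcription factor gene TAL1 to 4191 to 7710 cpm of the fetal globin gene HBG1, with GATA1 at 70.4 to 140 cpm. The T cell marker CD3E was at 0 counts in all 3 sgCtrl libraries. Of the other markers of foreign cell types, the liver gene ALB and the collagen gene COL1A1 had at most 1 and 4 counts in sgCtrl, and the epithelial gene EPCAM had 104 to 147 counts. ALB had 5, 32 and 20 counts in sgN6AMT1 (5.21, 5.79 and 4.92 cpm, against 0, 1.15 and 0 cpm in sgCtrl). COL1A1 had 2, 18 and 9 counts (2.08, 3.26 and 2.22 cpm) and EPCAM 149, 644 and 382 counts (155, 117 and 94.0 cpm). The part of these genes in the histone values was not tested.

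Replication-dependent histone genes supply the bulk of H1, H2A, H2B, H3 and H4 while DNA is copied in S phase. Their mRNAs have no introns and, unlike other mRNAs, usually end in a conserved stem-loop instead of a poly(A) tail. The stem-loop is bound by SLBP and, with the U7 small nuclear RNA, directs 3′ end cleavage. Variant (replacement) histone genes such as H2AFZ and H3F3A are transcribed throughout the cell cycle, often contain introns and yield polyadenylated mRNAs.

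The stem-loop separated the classes by sequence. In the GRCh38 genome, a stem of 6 base pairs with a loop of 4 letters (16 letters in all) lay within 300 bases downstream of the stop codon in 71 of 71 replication-dependent genes. It was found in 1 of 15 variant genes, H2AFX, and in 15 of 19934 protein-coding genes outside the histone list (0.0752%). The most frequent form, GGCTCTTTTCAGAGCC, occurred in 41 members, and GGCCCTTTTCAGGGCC and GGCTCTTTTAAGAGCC in 10 members each. The stem-loops of the genes that the comparisons turn on are shown 5′ to 3′ on the coding strand, as DNA letters, with the stem-loop in capitals and 5 flanking bases on each side. HIST1H4J was the histone gene with the highest level per length, and H2AFX is the variant with a stem-loop.

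HIST1H1D: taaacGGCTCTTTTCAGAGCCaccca
HIST1H2BH: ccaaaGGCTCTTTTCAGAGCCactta
HIST1H3H: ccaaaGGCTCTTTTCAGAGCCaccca
HIST1H4J: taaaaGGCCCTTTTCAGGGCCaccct
H2AFX: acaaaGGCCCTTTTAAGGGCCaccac

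Short promoter motifs were counted in both classes. Within 150 bases upstream of the RefSeq start (GRCh38.p14, 66 of the 71 replication-dependent and 13 of the 15 variant genes matched), CCAAT on either strand occurred in 84.8% of replication-dependent genes and in 24.4% of the promoters of the same length of all 27305 genes. The first start listed was used for each gene. Variant promoters held CCAAT in 8 of 13 cases (61.5%), and in 10 of 13 when any start listed for a gene was counted. TATAAA, likewise on either strand, occurred in 56.1% of replication-dependent and 23.1% of variant promoters, against 7.05% of all promoters. The octamer ATTTGCAT, the element bound by POU2F1 (Oct-1), was found in 14 of 18 H2B promoters (77.8%), 5 of 16 H2A promoters (31.2%), 1 of 13 H3 promoters, 0 of 13 variant promoters and 0.985% of all promoters. The H3 promoter is that of HIST1H3D, whose start as listed first is shared with HIST1H2AD. The octamers of HIST1H2AA, HIST1H2AC, HIST1H2AD and HIST1H2AM are the same genomic sites as those of HIST1H2BA, HIST1H2BC, HIST1H2BF and HIST1H2BO, in that order. CCAAT was in every matched H1, H2A, H2B and H3 promoter and in 3 of 13 H4 promoters (23.1%). The 3 genes that passed the test of sgN6AMT1 against sgCtrl are shown because the comparison turns on them, with each motif match in capitals, 5′ to 3′ in the direction of transcription. HIST1H1D (chr6:26234988-26235137, minus strand) has CCAAT and TATAAA, HIST1H2BH (chr6:26251464-26251613, plus strand) has CCAAT, its reverse complement and the octamer, and HIST1H3H (chr6:27809901-27810050, plus strand) has CCAAT and TATAAA. The matches shown do not overlap each other.

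HIST1H1D: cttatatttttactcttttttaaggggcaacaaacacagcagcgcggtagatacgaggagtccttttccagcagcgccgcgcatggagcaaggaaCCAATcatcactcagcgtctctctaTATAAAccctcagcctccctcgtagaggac
HIST1H2BH: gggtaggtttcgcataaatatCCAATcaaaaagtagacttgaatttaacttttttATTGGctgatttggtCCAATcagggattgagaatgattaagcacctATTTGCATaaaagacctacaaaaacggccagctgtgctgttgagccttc
HIST1H3H: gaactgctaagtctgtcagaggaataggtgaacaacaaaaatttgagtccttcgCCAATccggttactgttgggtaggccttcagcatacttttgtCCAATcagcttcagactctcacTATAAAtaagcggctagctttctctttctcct

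Replication-dependent histone genes took 2.31%, 2.12% and 2.63% of all counts in the 3 sgCtrl libraries and 2.17%, 2.26% and 2.94% in the 3 sgN6AMT1 libraries. The means were 2.35% ± 0.256 (SD, n = 3) and 2.46% ± 0.418 (SD, n = 3), and the groups overlapped. Each share was precise relative to these differences between libraries: the 95% Wilson interval was 2.27% to 2.34% in the first sgCtrl library and 2.92% to 2.95% in the third sgN6AMT1 library, where the interval covers counting error only. Variant genes took 0.161%, 0.145% and 0.160% of counts in sgCtrl and 0.153%, 0.162% and 0.155% in sgN6AMT1, with means of 0.155% ± 0.00898 and 0.157% ± 0.00474 (SD, n = 3 per group). Within a library, counts on replication-dependent genes exceeded those on variant genes 14.4-, 14.6- and 16.4-fold in sgCtrl and 14.2-, 13.9- and 18.9-fold in sgN6AMT1. The variant counts lack H3F3B, which was not analysed here, and the replication-dependent counts include near-identical pairs with nearly equal counts. The ratio of the sgN6AMT1 to the sgCtrl mean share was 1.04 for replication-dependent genes, and it fell below 1 without the third sgN6AMT1 library (0.942) and without the genes that have near-identical copies and the testis genes (0.957). In these bulk samples, the number of cells in S phase and the amount of histone mRNA per cell cannot be told apart.

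**Figure D1:**
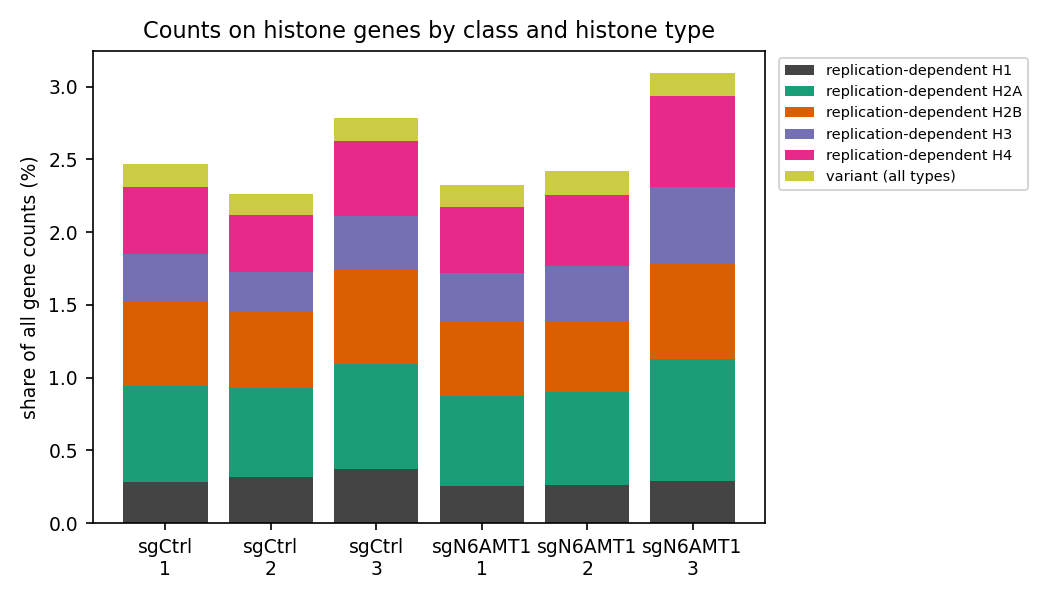
Share of all gene counts (%) on histone genes in each of the 6 libraries, stacked by histone type for the replication-dependent class with the variant class on top. The replication-dependent part runs from 2.12% to 2.94% and is highest in the third sgN6AMT1 library, and the variant part stays between 0.145% and 0.162%.

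The level of the replication-dependent class bears on whether total or polyadenylated RNA was sequenced, on which the sources disagree. The library protocol describes total RNA depleted of ribosomal RNA, whereas the molecule field names polyadenylated RNA. Some genes of the class are known to give polyadenylated transcripts as well (HIST1H1C, HIST1H2AC, HIST1H2BC, HIST1H2BD, HIST1H2BK and HIST2H2BE), and this group of 6 held 18.4%, 19.7% and 19.3% of the class counts in sgCtrl and 17.7%, 16.6% and 16.1% in sgN6AMT1. The remaining counts of the class lay on genes outside that group. No library selected for poly(A) was analysed here, and other RNAs without a poly(A) tail were not analysed here.

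Per length of transcript, replication-dependent genes stood among the most abundant genes of these cells. The median over the 63 members of the class with any count was 594 cpm per kilobase (kb) of transcript, averaged over the 6 libraries, against 43.7 for the 10 variants with any count and 5.55 for the 13567 genes with any count and an annotated length. Of the 100 genes with the highest level per kb, 17 were replication-dependent histone genes, near-identical pairs among them, and 0 were variants, with H3F3B not analysed here. The H4 gene HIST1H4J ranked 26 of all genes, with 2633 ± 397 cpm per kb in sgCtrl (SD, n = 3) and 3359 ± 811 cpm per kb in sgN6AMT1 (SD, n = 3). Its near-identical neighbour HIST1H4K followed at rank 27, the H2B gene HIST1H2BK at 45, the H2A gene HIST1H2AG at 53 and the linker histone gene HIST1H1C at 58. HIST1H4K had 0.883 to 0.907 times the counts of HIST1H4J in all 6 libraries, and how reads were divided between these near-identical genes is not known.

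The order within the variants was H2AFZ, H3F3A, H2AFY, then H3F3C and H2AFX, then H2AFV and H1FX. H2AFZ encodes H2A.Z, the variant placed around transcription start sites, and had 666 ± 79.2 cpm per kb in sgCtrl and 747 ± 88.6 in sgN6AMT1. H3F3A, one of the genes for the replacement histone H3.3, followed with 409 ± 38.4 and 381 ± 65.8 cpm per kb, and H2AFY, the gene of macroH2A1, with 130 ± 12.7 and 119 ± 14.1. H3F3C and H2AFX lay within each other's spread in sgCtrl, at 48.8 ± 9.01 and 51.5 ± 4.04 cpm per kb. H2AFX encodes the H2A form phosphorylated at DNA breaks. The lowest were H2AFV, which encodes the second H2A.Z protein, at 39.6 ± 6.20 and the linker histone gene H1FX at 21.1 ± 2.03 (SD, n = 3 for all).

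**Figure D2:**
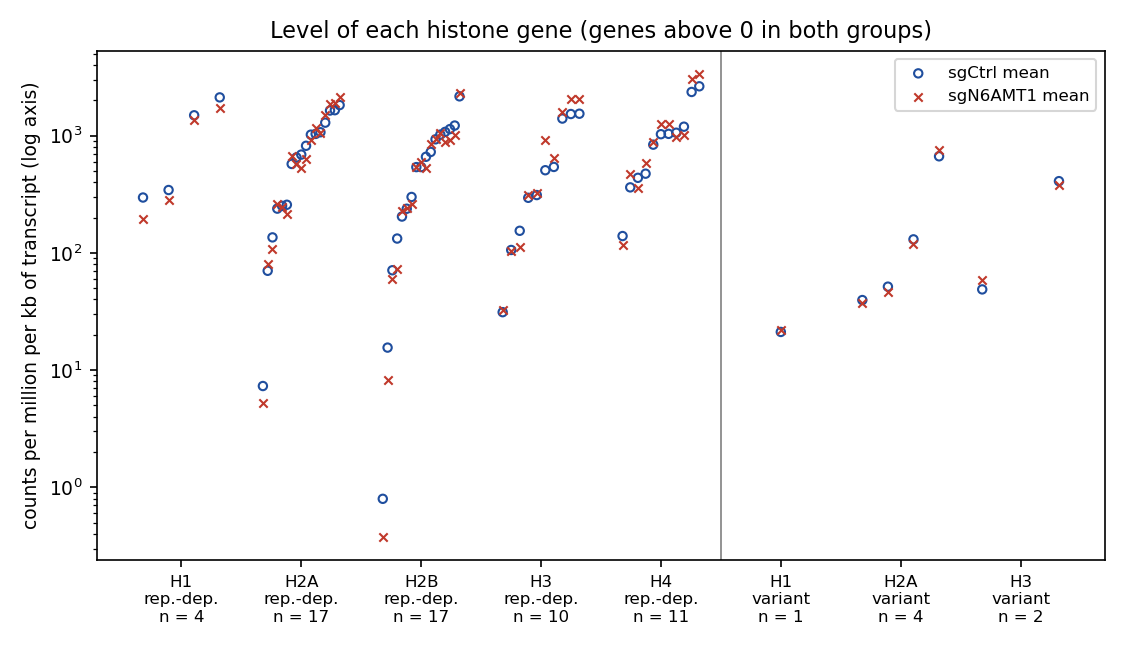
Level of each histone gene in cpm per kb of transcript (log axis) by class and histone type, as the mean of 3 sgCtrl libraries (circles) and of 3 sgN6AMT1 libraries (crosses). Genes at 0 in either group are not drawn. Most replication-dependent genes lie above all variants except H2AFZ and H3F3A.

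Not all members were used. Listed at 0 in all 6 libraries were 8 replication-dependent genes (HIST1H1A, HIST1H3C, HIST1H3E, HIST1H3G, HIST1H3I, HIST1H4F, HIST1H4G and HIST4H4) and 5 variants (H1F0, H2AFJ, H2AFY2 and the germ cell genes H1FNT and H1FOO). A count of 0 allows up to 4.04 cpm in the shallowest library and up to 0.543 cpm in the deepest. The testis genes HIST1H1T, HIST1H2AA, HIST1H2BA and HIST3H3 also had few counts, at most 36 in any library. H3F3B, the other gene of H3.3, was not analysed here. After the filter on low counts, 56 replication-dependent and 7 variant genes were tested, and 15 and 8 were not.

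The comparison of sgN6AMT1 with sgCtrl asked whether depletion of N6AMT1 changed histone mRNA levels. With edgeR's quasi-likelihood test and Benjamini-Hochberg adjustment over all 8324 genes tested, 9.85% of genes passed an adjusted p of 0.05 (5.09% higher and 4.76% lower in sgN6AMT1). Among the 56 replication-dependent genes, 3 passed (5.36%), HIST1H3H higher and HIST1H1D and HIST1H2BH lower, and among the 7 variants 0 passed. At an unadjusted p under 0.05 there were 8 of the 56 replication-dependent genes and 0 variants, against 26.2% of all genes tested, and DESeq2 also called 0 variants. The median log2 fold change was 0.07 for the replication-dependent genes and -0.05 for the variants, against 0.0087 over all genes tested. In 8 of the 63 tested members, all replication-dependent, the values of the groups did not overlap (7 lower and 1 higher in sgN6AMT1). This was a smaller share than the 29.2% of all genes tested.

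HIST1H3H encodes H3 and lies on chromosome 6 (GRCh38, 27810051 to 27811300, plus strand). Its levels, normalized by the trimmed mean of M-values (TMM) like all cpm of single genes from here on, were 242, 232 and 270 cpm in sgCtrl and 305, 374 and 693 cpm in sgN6AMT1. All 3 sgN6AMT1 libraries lay above all sgCtrl libraries, and the third was far above the other 2. The log2 fold change was 0.89 ± 0.22 (SE), with an edgeR adjusted p of 0.0183. The call was lost without the third sgN6AMT1 library, where the log2 fold change was 0.47 (edgeR adjusted p = 0.0545), without the first sgCtrl library (edgeR adjusted p = 0.0740) and without the second sgCtrl library (edgeR adjusted p = 0.108).

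HIST1H1D encodes the linker histone H1.3 and lies at 26234212 to 26234987 of chromosome 6 (minus strand). It had 184, 231 and 281 cpm in sgCtrl and 150, 150 and 160 cpm in sgN6AMT1. The sgN6AMT1 values were close together and all lay below the sgCtrl values. The log2 fold change was -0.60 ± 0.16 (SE), with an edgeR adjusted p of 0.0277. The call was lost without the second sgCtrl library (edgeR adjusted p = 0.105), the third sgCtrl library (edgeR adjusted p = 0.108) and the second sgN6AMT1 library (edgeR adjusted p = 0.0894).

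HIST1H2BH encodes H2B and lies at 26251614 to 26252075 of chromosome 6 (plus strand), close to HIST1H1D. It had 72.6, 57.7 and 54.2 cpm in sgCtrl and 29.5, 31.6 and 42.4 cpm in sgN6AMT1. The groups did not overlap, and the third sgN6AMT1 library came nearest to sgCtrl. The log2 fold change was -0.80 ± 0.23 (SE), with an edgeR adjusted p of 0.0330. The call was lost without sgCtrl replicate 1 or 2 (edgeR adjusted p = 0.141 and 0.0978) and without sgN6AMT1 replicate 1 or 2 (edgeR adjusted p = 0.0545 and 0.122). Replicate 1 of sgN6AMT1 held only 28 counts of the gene.

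**Figure D3:**
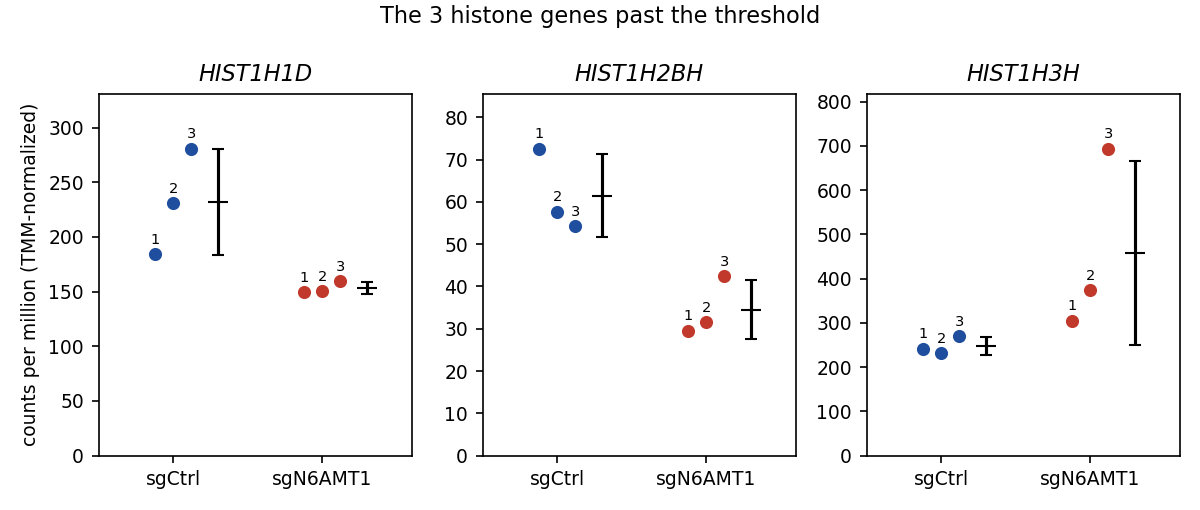
TMM-normalized cpm of HIST1H1D, HIST1H2BH and HIST1H3H in each library (points, numbered by replicate), with the mean and SD of 3 libraries beside them. The groups do not overlap for any of the 3 genes, and the mean of HIST1H3H in sgN6AMT1 is raised by replicate 3 at 693 cpm.

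In 5 further genes the groups were separate although the test was not passed, and these were named after their values were seen. The H2A genes HIST1H2AD and HIST1H2AE had log2 fold changes of -0.36 ± 0.14 and -0.35 ± 0.15 (SE), with edgeR adjusted p of 0.0989 and 0.130. HIST1H2AD had 422, 397 and 442 cpm in sgCtrl and 346, 311 and 324 cpm in sgN6AMT1. HIST1H2BG, HIST1H4E and HIST1H4H had values of -0.25, -0.21 and -0.27. All 5 lie in the same cluster of chromosome 6 as HIST1H1D and HIST1H2BH. In that cluster the groups did not overlap for 7 of 24 tested genes, a share near the 29.2% of all genes tested.

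The most abundant replication-dependent genes did not pass the test. HIST1H1C, which encodes the linker histone H1.2, had 1332, 1526 and 1821 cpm in sgCtrl and 1184, 1292 and 1395 cpm in sgN6AMT1, a log2 fold change of -0.27 ± 0.16 (SE) with overlapping groups. HIST1H1E, which encodes H1.4, had a value of -0.12 ± 0.15. HIST1H4J had 1043, 861 and 1192 cpm in sgCtrl and 1118, 1154 and 1744 cpm in sgN6AMT1, so that only the third sgN6AMT1 library exceeded all of sgCtrl, and its log2 fold change was 0.38 ± 0.18. The H3 genes HIST2H3A and HIST2H3C had values of 0.44 ± 0.19 and 0.45 ± 0.19, and HIST1H4K of 0.40 ± 0.18. HIST1H2AG, HIST2H2AA3 and HIST2H2AA4 (H2A) and HIST1H2BK (H2B) were between 0.12 and 0.27, each highest in the third sgN6AMT1 library. The extremes of the other types were HIST1H3F at -0.42 for H3, HIST1H4I at 0.40 for H4, HIST1H2AJ at 0.27 for H2A and HIST1H2BD at 0.24 for H2B.

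Several of these genes cannot be counted separately. Of the replication-dependent genes, 13 shared at least 50% of their 60-base windows, the length of a read, with another annotated gene. HIST2H4A and HIST2H4B, identical in all windows, had 311 and 313 counts in the first sgCtrl library and 2813 and 2817 in the second sgN6AMT1 library, and differed by at most 6 counts in any library. HIST2H3A and HIST2H3C had 602 and 603, and HIST2H2AA3 and HIST2H2AA4 had 669 and 666 counts in the first sgCtrl library. The members of such a pair are therefore not independent, and their values are shared ones. With 1 gene kept of each pair, the class took 2.03% of counts in sgCtrl and 2.05% in sgN6AMT1 as group means. HIST1H2AM shared 71.0% of its exon bases, on the same strand, with exons of HIST1H3J, and HIST1H2AD and HIST1H3D shared 85.3% and 96.6% of theirs with a protein-coding gene model spanning both. Whether the counting used strand is not given in the sources used here, and HIST1H2BC lies wholly under a gene model on the opposite strand.

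None of the 7 tested variants passed the test. H2AFZ had 538, 535 and 670 cpm in sgCtrl and 607, 610 and 768 cpm in sgN6AMT1, a log2 fold change of 0.19 ± 0.16 (SE). H3F3A had 484, 414 and 422 cpm against 419, 478 and 348 cpm, with -0.08 ± 0.15. In both genes the groups overlapped. H3F3C, which encodes H3.5, had the highest value of the variants at 0.28 ± 0.21, and H2AFX the lowest at -0.13 ± 0.19. H2AFY, H2AFV and H1FX had values of -0.11 ± 0.15, -0.05 ± 0.18 and 0.03 ± 0.25. H3F3A shared 70.4% of its 60-base windows with other annotated genes, so part of its counts may belong elsewhere. H3F3C shared 15.2% of its windows with H3F3B, which was not analysed here, so part of its counts may belong to that gene. The near-identical germ cell genes H2AFB1, H2AFB2 and H2AFB3 had 1 count each in a single library.

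The share of each histone type in the counts of the replication-dependent class is given as a description. H1 genes made up 12.2%, 14.9% and 14.1% of the class counts in sgCtrl and 11.8%, 11.8% and 9.79% in sgN6AMT1. H2B genes made up 24.9%, 24.6% and 24.7% against 23.6%, 21.6% and 22.3%. For H3 the shares were 14.4%, 13.0% and 14.1% against 15.3%, 16.7% and 18.0%, and for H4 19.9%, 18.6% and 19.6% against 20.9%, 21.8% and 21.3%. In each of these 4 types the groups did not overlap, whereas H2A made up 27.5% to 28.9% in sgCtrl and 28.2% to 28.5% in sgN6AMT1. The 5 shares add up to the whole, so they are not independent, and no test was run on them. By gene, all 4 tested H1 genes had negative log2 fold changes (median -0.27), 9 of 10 H3 genes had positive ones (median 0.17), and H4 had 7 positive of 11 (median 0.31). H2A and H2B were divided, with 8 of 16 and 8 of 15 positive (medians 0.08 and 0.02). Of these genes, 1 each of H1, H2B and H3 and 0 of H2A and H4 passed the test. By library, as a log2 difference from the sgCtrl average, the H3 median was -0.09, 0.12 and 0.49 in sgN6AMT1 against 0.04, -0.24 and 0.20 in sgCtrl, and the H4 median was -0.08, 0.15 and 0.48 against 0.01, -0.24 and 0.20. For both types sgN6AMT1 replicates 1 and 2 lay within the sgCtrl range and replicate 3 above it. The H1 median was -0.31, -0.34 and -0.20 against -0.17, -0.02 and 0.23, so that all sgN6AMT1 libraries lay below sgCtrl. The H3 genes include the near-identical HIST2H3A and HIST2H3C, and the H4 genes HIST1H4J with HIST1H4K and HIST2H4A with HIST2H4B, so the members of each pair are not separate measurements.

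The tested genes also differed by where they lie. Replication-dependent histone genes are grouped in the genome, and genes less than 500000 bases apart were taken as 1 cluster. HIST3H3, HIST3H2A and HIST3H2BB lie within that distance of each other on chromosome 1 but were counted as outside the clusters. The first chromosome 6 cluster (chr6:25723397-26285638) held 34 members, the second (chr6:27125897-27147562) 5, the third (chr6:27807479-27893891) 16, and the chromosome 1 cluster (chr1:149782689-149887965) 11. In the first chromosome 6 cluster 16 of 24 tested genes had negative log2 fold changes, with a median of -0.22, and both genes called lower lie there. In the second, 5 of 5 were positive (median 0.19). In the third, 10 of 13 were positive (median 0.16), and HIST1H3H lies there. In the chromosome 1 cluster 7 of 11 were positive (median 0.22). The types did not all follow this order. Among H2A genes, 4 of 4 in the first chromosome 6 cluster were negative (median -0.29) and 5 of 7 in the second and the third were positive (median 0.19). H2B genes had medians of -0.25 (3 of 7 positive) and 0.06 (5 of 5), and H4 genes of -0.16 (2 of 6) and 0.40 (3 of 3). H3 genes were mostly positive in the first cluster too, with 3 of 4 (median 0.12) and 2 of 2 (median 0.50). H1 genes were negative in both, with a median of -0.27 over 3 genes and -0.27 for the single gene in the third cluster. The clusters were compared after the values were seen, and the difference between them was not tested.

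**Figure D4:**
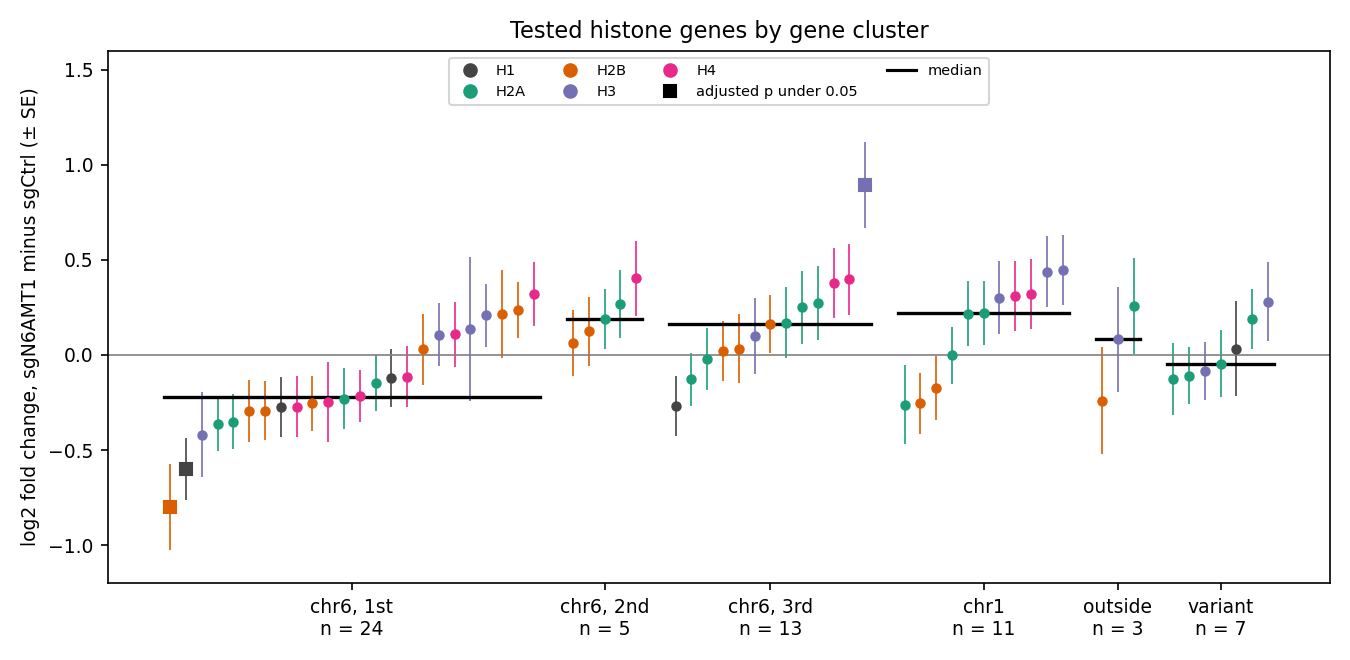
Log2 fold change of sgN6AMT1 minus sgCtrl with its SE for each tested histone gene, sorted within its gene cluster and coloured by histone type (squares passed an adjusted p of 0.05, bars give the median). The median is -0.22 in the first chromosome 6 cluster and between 0.16 and 0.22 in the other 3 clusters, and the 7 variants lie between -0.13 and 0.28.

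By library, the median level of the first chromosome 6 cluster, as a log2 difference from the sgCtrl average, was -0.27, -0.21 and -0.05 in the 3 sgN6AMT1 libraries, against -0.06, -0.07 and 0.16 in sgCtrl. That of the second and the third chromosome 6 clusters together was -0.04, -0.04 and 0.45 in sgN6AMT1, against 0.01, -0.15 and 0.19 in sgCtrl. That of the chromosome 1 cluster was -0.08, 0.08 and 0.48, against 0.05, -0.24 and 0.16. In the second and the third chromosome 6 clusters together and in the chromosome 1 cluster, sgN6AMT1 replicates 1 and 2 lay within the sgCtrl range. In the first chromosome 6 cluster replicates 1 and 2 lay below that range and replicate 3 within it. Without the third sgN6AMT1 library the medians of the fitted log2 fold changes were 0.02, -0.06 and 0.03 for the second and the third chromosome 6 clusters and the chromosome 1 cluster. The first chromosome 6 cluster had a median of -0.20 without that library.

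**Figure D5:**
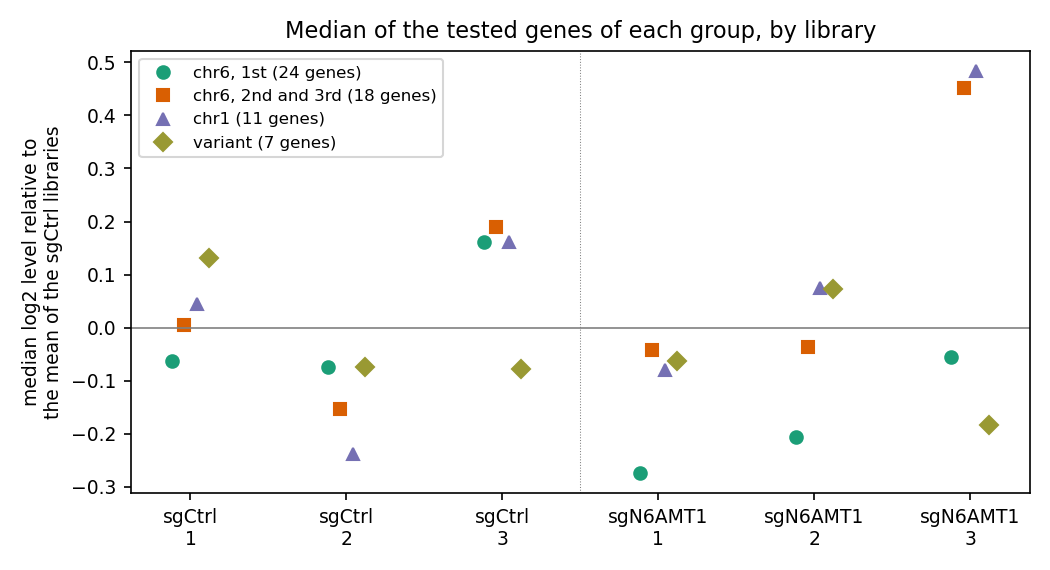
Median log2 level of the tested genes of each gene cluster, and of the variants, by library, as the log2 difference from the sgCtrl average. The first chromosome 6 cluster is below the other replication-dependent clusters in all 3 sgN6AMT1 libraries and in sgCtrl replicates 1 and 3, by less in sgCtrl, and the other clusters stand at 0.45 and 0.48 in sgN6AMT1 replicate 3.

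Base composition moved with the pattern by cluster and, in part, by type. Genes encoded by mitochondrial DNA and histone genes were left out of the trend over tested genes with a known GC content. The median log2 fold change was -0.14 in the fifth of these genes with the lowest GC content and 0.19 in the fifth with the highest. The median GC content was 55.3% for the first chromosome 6 cluster, 59.1% for the tested genes of the second and the third, and 60.9% for the chromosome 1 cluster. By type, the tested genes had a median GC content of 57.0% for H1, 58.9% for H2A, 55.9% for H2B, 60.1% for H3 and 58.5% for H4. Across the 56 tested replication-dependent genes, GC content and log2 fold change had a Pearson's r of 0.57 and a Spearman's rho of 0.62, as a description of genes that share libraries and, in part, reads. With an offset for GC content and length, the median of the first chromosome 6 cluster was -0.36, with 20 of 24 genes negative, and those of the second and the third chromosome 6 clusters and the chromosome 1 cluster were 0.02, -0.03 and 0.02. By type, the medians with the offset were -0.47 for H1, -0.09 for H2A, -0.14 for H2B, -0.0011 for H3 and 0.16 for H4, and 5 of 10 H3 genes and 6 of 11 H4 genes were positive. In that fit 8 replication-dependent genes passed the test, HIST1H3H higher and HIST1H1B, HIST1H1C, HIST1H1D, HIST1H2AD, HIST1H2AE, HIST1H2BC and HIST1H2BH lower, that is 14.3% of the class against 11.4% of all genes. Near-identical copies moved with the clusters too: the first chromosome 6 cluster held none, and 12 of the 13 such genes had positive values (median 0.30).

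Genes that make and handle histone mRNA were counted next. Of 36 genes listed for transcription, 3′ end processing and decay of histone mRNA, 32 were tested and 3 passed (9.38%, against 9.85% of all genes), 2 higher and 1 lower, with a median log2 fold change of -0.12. With 1 library left out, the number that passed lay between 0, without sgCtrl replicate 1 or without sgN6AMT1 replicate 2, and 5, without sgN6AMT1 replicate 1. Of all genes tested, 301 of 8594, 495 of 8456 and 951 of 8477 passed in these 3 fits. With the GC and length offset, 4 genes of the list passed, all lower (12.5%, against 11.4% of all genes). SLBP, the stem-loop binding protein, had 121, 155 and 150 cpm in sgCtrl and 138, 137 and 176 cpm in sgN6AMT1, a log2 fold change of 0.09, and NPAT, the S phase coactivator of histone transcription, had -0.36. The transcript of NFYA, a subunit of the factor that binds CCAAT, fell from 44.3, 16.2 and 29.5 cpm to 17.9, 13.7 and 9.25 cpm (log2 fold change -1.21 ± 0.36, edgeR adjusted p = 0.0417). These groups overlapped, and the call was lost without sgCtrl replicate 1 or 3 (edgeR adjusted p = 0.239 and 0.0867), without sgN6AMT1 replicate 2 or 3 (edgeR adjusted p = 0.0883 and 0.114), in DESeq2 (adjusted p = 0.0513) and after the deeper libraries were thinned (edgeR adjusted p = 0.0846). NELFE, a subunit of the negative elongation factor, rose from 103, 106 and 97.8 cpm to 156, 157 and 148 cpm (log2 fold change 0.58 ± 0.16, edgeR adjusted p = 0.0253). SNRPB, which encodes a core protein of small nuclear ribonucleoproteins, rose from 320, 268 and 338 cpm to 383, 416 and 569 cpm (log2 fold change 0.57 ± 0.17, edgeR adjusted p = 0.0370). With the GC and length offset NELFE and SNRPB no longer passed (edgeR adjusted p = 0.116 and 0.110). NELFE was also lost without sgCtrl replicate 1, 2 or 3 or sgN6AMT1 replicate 2 (edgeR adjusted p = 0.0776, 0.102, 0.0614 and 0.0869). SNRPB was lost without sgCtrl replicate 1 or 2 or sgN6AMT1 replicate 2 or 3 (edgeR adjusted p = 0.0956, 0.211, 0.0521 and 0.121).

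Among genes for histone chaperones and exchange factors, 7 of 31 tested genes passed (22.6%, against 9.85% of all genes), 6 lower and 1 higher in sgN6AMT1 (against 4.76% lower and 5.09% higher of all genes), and 24 of 31 had negative values (median -0.25). The 4 with the smallest p are described, and other genes of the list that act on H2A.Z did not pass, such as VPS72 (log2 fold change 0.03) and INO80 (0.17). ANP32E, a chaperone that removes H2A.Z from chromatin, had 92.7, 159 and 107 cpm in sgCtrl and 41.1, 61.3 and 27.3 cpm in sgN6AMT1. All sgN6AMT1 values lay below all sgCtrl values, and the log2 fold change was -1.45 ± 0.26 (edgeR adjusted p = 0.00273). EP400 and SRCAP, the ATPases of complexes that deposit H2A.Z, had log2 fold changes of -1.06 ± 0.23 (edgeR adjusted p = 0.00955) and -0.89 ± 0.20 (edgeR adjusted p = 0.0117). EP400 went from 128, 95.8 and 60.1 cpm to 50.6, 40.2 and 46.8 cpm, and SRCAP from 212, 145 and 139 cpm to 116, 88.7 and 69.2 cpm. ZNHIT1, another subunit of the SRCAP complex, rose from 51.1, 46.1 and 57.8 cpm to 79.0, 81.4 and 93.8 cpm (log2 fold change 0.72 ± 0.19, edgeR adjusted p = 0.0253). The other genes that passed were NAP1L4, CHAF1B and NASP, all lower. H2AFZ and H2AFV, which encode H2A.Z, did not pass the test.

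Several calls in this list were lost when 1 library was left out. ANP32E passed with each library left out in turn. EP400 was lost without sgCtrl replicate 1 or 2 (edgeR adjusted p = 0.0761 and 0.0549), SRCAP without sgCtrl replicate 1 (edgeR adjusted p = 0.0811), and ZNHIT1 without sgCtrl replicate 1 or 2 (edgeR adjusted p = 0.0825 and 0.135) and sgN6AMT1 replicate 2 or 3 (edgeR adjusted p = 0.0565 and 0.0596). ZNHIT1 also missed the threshold with the GC and length offset (edgeR adjusted p = 0.0720) and in DESeq2 (adjusted p = 0.0512). With 1 library left out, the number of genes called in the list lay between 1, without sgCtrl replicate 1, and 5. Without sgCtrl replicate 1, 301 of all 8594 genes tested passed. With the GC and length offset, 8 genes of the list passed (25.8%, against 11.4% of all genes).

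Genes expressed in S phase were listed because the replication-dependent class is transcribed then. Of 46 tested, 3 passed (6.52%, against 9.85% of all genes), all lower, with a median log2 fold change of -0.05. With 1 library left out, the number that passed lay between 1, without sgCtrl replicate 1, and 6, without sgN6AMT1 replicate 1. In the same fits, 301 of 8594 and 951 of 8477 of all genes tested passed. TYMS, which encodes thymidylate synthase, went from 239, 222 and 180 cpm to 135, 130 and 92.3 cpm (log2 fold change -0.86 ± 0.18, edgeR adjusted p = 0.00642). UHRF1 had a log2 fold change of -0.95 ± 0.23 (edgeR adjusted p = 0.0141) and the cyclin E gene CCNE1 of -0.82 ± 0.24 (edgeR adjusted p = 0.0338). UHRF1 was lost without sgCtrl replicate 1 or 2 (edgeR adjusted p = 0.0743 and 0.100), and CCNE1 without sgCtrl replicate 1 or 3 (edgeR adjusted p = 0.0939 and 0.126), without sgN6AMT1 replicate 1 or 2 (edgeR adjusted p = 0.0573 and 0.0972) and after thinning (edgeR adjusted p = 0.0609). By library the S phase median relative to sgCtrl was -0.08, -0.06 and -0.04 in sgN6AMT1 against -0.04, -0.0062 and 0.03 in sgCtrl, and the groups overlapped. Of the 11 erythroid and K562 markers tested, 3 passed (27.3%, against 9.85% of all genes), and 7 had positive and 4 negative values. HBE1, HBG1 and HBG2 passed and were higher in sgN6AMT1 (log2 fold changes 0.89, 1.04 and 1.05), but the HBG1 and HBG2 groups overlapped. HBG1 and HBG2 had similar counts in every library, such as 3112 and 2966 in the first sgCtrl library. Their calls may therefore not be separate measurements. The groups were also separate for HBZ and TFRC, which were lower (-0.39 and -0.25), and for ABL1, which was higher (0.27). HBZ, TFRC and ABL1 did not pass (edgeR adjusted p = 0.116, 0.300 and 0.239). HBG1 and HBG2 were not called by DESeq2 (adjusted p = 0.117 and 0.116), HBG1, HBG2 and HBE1 were lost without sgCtrl replicate 2 (edgeR adjusted p = 0.111, 0.110 and 0.0561), and HBG1 and HBG2 without sgCtrl replicate 1 (edgeR adjusted p = 0.0756 and 0.0743). The part of these changes in the histone values was not tested.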

How the data were processed

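RNA was purified from cleared lysates of 6 K562 cultures, and libraries were made with a stranded total RNA kit after depletion of ribosomal RNA. Per the labels and the study's methods, the authors trimmed reads with cutadapt, aligned them with HISAT2 to GRCh38 and deposited counts, the number of reads overlapping each gene of the Ensembl release named in the methods; tool versions, strand setting and the treatment of reads with several alignments are not given in the sources used here. All 6 columns were used (0 left out).

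Members were matched to GENCODE 44 (86 of 86) for position, length and GC content. Counts were tested in edgeR 4.0.16 (R 4.3.3) with filterByExpr, TMM normalization and the quasi-likelihood test, without covariates, on 8324 genes, and p-values were adjusted by Benjamini-Hochberg at 0.05. This test was checked on simulated data. DESeq2 1.42.0, other scalings, filters, a GC and length offset, thinning, a block for replicate number and leaving out each library were alternatives. Levels per kb are cpm without TMM divided by the length of the canonical transcript; library medians used a pseudocount of 0.5 counts. Wilson 95% intervals and floors of 3 counts cover counting error only. Genes named were the members called, the 10 most abundant of each class, the extremes of each histone type, and up to 4 called genes of each list. Members whose groups did not overlap were added after their values were seen. Other genes, such as SLBP, NPAT, VPS72, INO80, NAP1L4, CHAF1B and NASP, were mentioned beside them and are not among the named genes counted below. The members and lists were chosen with earlier results of these data known. Reads overlapping annotated genes were assigned by the authors with Ensembl models, so overlaps given here from GENCODE 44 may differ from theirs.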

Additional observations from a re-analysis of the deposited data

How the results depend on the processing

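The main test called 820 genes and 3 replication-dependent genes. Without 1 library, these counts lay between 220 and 951 genes and between 0 and 4 replication-dependent genes, the lowest without sgCtrl replicate 2. Of the 8324 genes tested, 1195 passed with the replicate block, 948 with the GC and length offset and 1354 with both. Of the 56 replication-dependent genes tested, 5 passed with the block, 8 with the offset and 17 with both (1 higher, 16 lower). At an adjusted p of 0.01, 214 of all genes and 0 of the class passed. The share of the class that passed was below that of all genes in the main test and with the block alone. With the offset, alone or with the block, it was above that of all genes. The variant count was 0 under every alternative. Whether replicate numbers pair these libraries is not established. Deviations of same-numbered libraries correlated at -5e-04, 0.0827 and 0.19, and sgN6AMT1 replicates 2 and 3, but not 1, correlated best with their own number. Deviations from a mean of 3 libraries depend on each other, so these correlations cannot decide it.

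No named gene that passed the main test changed sign. Of the log2 fold changes of named genes under the alternatives, 634 kept direction and side of the threshold, 51 lost the threshold, 16 newly passed it and 13 changed sign. H1FX reversed with the offset (-0.22), with offset and block (-0.19), after thinning of the deeper libraries (-0.0942) and without 1 library (-0.0514 to 0.1082). HIST1H2BK reversed with the offset (-0.0460) and with offset and block (-0.0608). Without 1 library, HIST1H2BK lay between -0.10 and 0.26, H2AFV between -0.19 and 0.0552, H3F3A between -0.20 and 0.0355, and HIST1H2AJ between -0.0407 and 0.43. The sgN6AMT1 to sgCtrl ratios of the class shares, and of the ratio between the classes, moved by less than the spread between replicates, but the share itself depended on the members counted: the replication-dependent class took 1.46% of counts in sgCtrl and 1.39% in sgN6AMT1 without testis genes and near-identical copies, and 2.03% and 2.05% with 1 gene kept of each near-identical pair. Genes with few counts in the shallower libraries, such as HIST1H2BH and N6AMT1, are limited by depth.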
